A study of Homo sapiens with 24 samples.

Results

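The miR-29 family in OV90 cells was read as 7 mature arms, the 3p arms hsa-miR-29a-3p, hsa-miR-29b-3p and hsa-miR-29c-3p and the 5p arms hsa-miR-29a-5p, hsa-miR-29b-1-5p, hsa-miR-29b-2-5p and hsa-miR-29c-5p, named without the species prefix from here on. The arms were taken by name from a miR-seq table of 2656 human mature miRNAs, and the family was chosen because it has been reported to be repressed by NF-κB. OV90 is an established epithelial ovarian cancer cell line. Its cells held an shRNA switched on by doxycycline, which was either a negative control (shNeg) or directed against RELA (shRELA), which encodes the main factor of canonical NF-κB signaling, or RELB (shRELB), which encodes a factor of the non-canonical pathway. Each line was grown in adherent culture, in RPMI with fetal calf serum, and in spheroid culture, in ultra-low attachment plates with a defined medium holding EGF and FGF, chosen by the study because it favors tumor-initiating cells (TICs). All 6 groups, the controls included, received doxycycline at 1 µg/ml for 72 h, and each group had 4 replicates. The sample titles name the controls as Neg while another label calls them wild type. The titles were followed, with the study's description of a negative control shRNA. Surface and medium changed together, so their parts cannot be told apart. The labels do not say that replicates were separate cultures, so p-values measure the spread between these libraries, which may be technical. The mRNAs of RELA and RELB are not seen by miR-seq, and the extent of silencing was not measured here.

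A microRNA is cut from a hairpin precursor, and usually the arm that is kept guides a silencing complex to mRNAs that pair with its seed, the bases near its 5′ end. The 3p arms are the guides of the miR-29 family and are known to lower collagens and other matrix proteins, the DNA methyltransferases DNMT3A and DNMT3B, and the survival protein MCL1. The 5p arms are the partner strands, usually discarded. NF-κB and MYC have both been reported to repress transcription of miR-29 hairpins.

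The mature sequences are printed to show which arms can be told apart by their letters, with the seed (bases 2 to 8) in capitals. They are given 5′ to 3′ from the RefSeq annotation of GRCh38.p14.
miR-29a-3p: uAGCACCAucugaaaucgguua
miR-29b-3p: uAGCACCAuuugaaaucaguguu
miR-29c-3p: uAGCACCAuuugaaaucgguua
miR-29a-5p: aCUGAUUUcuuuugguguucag
miR-29b-1-5p: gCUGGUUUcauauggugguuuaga
miR-29b-2-5p: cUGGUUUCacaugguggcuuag
miR-29c-5p: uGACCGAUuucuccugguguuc

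The 3 guides shared 1 seed, AGCACCA, which no other of the 2370 human mature miRNAs in the RefSeq table carried. Counted from 1 at the 5′ end, miR-29a-3p and miR-29c-3p differed at 1 of 22 bases (C10U, with the miR-29a-3p base first). MiR-29b-3p differed from miR-29c-3p at 3 of the first 22 bases (A18G, G21U and U22A, with the miR-29b-3p base first). It alone of the family ended in AGUGUU, an element known for directing miR-29b to the nucleus. The sources used here do not give the mismatch setting of the counting, so reads of miR-29a-3p and miR-29c-3p may have been split uncertainly. Each 5p arm had a seed found in no other miRNA of that table. MiR-29b-1-5p and miR-29b-2-5p, with the first shifted by 1 base, differed at 2 of 22 bases.

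The arms come from 4 hairpins in 2 clusters, all on the minus strand of GRCh38. On chromosome 7, MIR29A (chr7:130876747-130876810) and MIR29B1 (chr7:130877459-130877539) lie 648 bases apart, within exons of the long noncoding RNA LINC-PINT and an intron of LINC00513 on the opposite strand (GENCODE v44). On chromosome 1, MIR29C (chr1:207801852-207801939) and MIR29B2 (chr1:207802443-207802523) lie 503 bases apart, within exons of the host transcript MIR29B2CHG. MIR29B1 and MIR29B2 both give miR-29b-3p, whose values moved in steps of 0.5 counts, so its reads cannot be assigned to a cluster. The 5p arms miR-29b-1-5p and miR-29b-2-5p each belong to 1 of them.

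Library totals ran from 3797175 to 8283549 counts in adherent culture and from 959141 to 3580931 in spheroid culture. A count of 0 in a library allows up to 3 counts, which is 0.362 to 0.790 CPM (counts scaled to the library total) in adherent and 0.838 to 3.13 CPM in spheroid libraries and covers counting error only. Spheroid shNeg replicate 1 stood apart, with a count for 432 miRNAs where the other spheroid shNeg libraries had 813, 855 and 885. Group means and ratios of spheroid shNeg include it unless stated, and fold changes and ratios against that group are also given without it where an arm was called or the groups lay apart. As a check of the cell type, miR-200c-3p (1641 to 15660 CPM) and miR-205-5p (453 to 2621 CPM) led the summed level of 7 epithelial markers, at 2486 to 16336 CPM. Of the 7, miR-429 was at 0 in 7 and miR-203a-3p in 9 of the 24 libraries, and the others were counted in all. The sums were 16.3 to 257 CPM for 4 fibroblast and smooth muscle markers, 7.44 to 50.9 CPM for 5 blood cell markers and 570 to 9281 CPM for 2 endothelial markers, mostly miR-126-3p. The liver and muscle list reached 13736 to 29400 CPM through miR-122-5p, while miR-1-3p, miR-133a-3p and miR-206 were at 8.40 CPM or lower. The sums also differed between groups, and some of those values are given with the comparisons. Other sums lay apart from shNeg too, for example fibroblast and smooth muscle sums of 175 to 195 CPM in adherent shRELB (shNeg 227 to 257). In spheroid shRELB they were 87.0 to 129 CPM (shNeg 64.5 to 72.3). Blood cell sums were 7.44 to 11.4 CPM in adherent shRELA (shNeg 14.9 to 19.2). Liver and muscle sums were 14285 to 15974 CPM in spheroid shRELA (shNeg 16381 to 23896). The part of these cells or miRNAs in the results was not tested.

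Levels are given as CPM scaled between libraries by TMM, a factor that evens out differences in composition. MiR-29a-3p dominated the family and was among the 32 most abundant miRNAs of every library, at ranks 12 to 32. Mean levels of the summed 3p arms were 22547 ± 920 CPM (SD, n = 4) in adherent shNeg, 22804 ± 7063 in adherent shRELA, 9878 ± 1099 in adherent shRELB, 11991 ± 3047 in spheroid shNeg, 8017 ± 1054 in spheroid shRELA and 4812 ± 402 in spheroid shRELB. Without replicate 1 the spheroid shNeg mean was 10647 ± 1756 CPM (SD, n = 3). MiR-29a-3p held 97.3% ± 0.724 of that sum in adherent shNeg and 93.9% ± 2.02 in spheroid shRELB, the group where its share was lowest. The summed 5p arms came to 1.87% ± 0.197 of the 3p sum in adherent shNeg and to 4.83% ± 0.664 in spheroid shRELA. In these bulk libraries, fewer cells carrying a miRNA and less of it per cell cannot be told apart.

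MiR-29a-3p measured 20944, 21481, 22918 and 22378 CPM in adherent shNeg replicates 1 to 4 and 22106, 21541, 14258 and 30832 CPM in adherent shRELA. In adherent shRELB it measured 9838, 10976, 8942 and 8502 CPM. The shRELB libraries all lay below the other adherent libraries, and shRELA replicates 3 and 4 lay on either side of the controls. In spheroid culture the replicates measured 15632, 8206, 11091 and 11520 CPM with shNeg, 9307, 7183, 6912 and 7842 CPM with shRELA and 4287, 4045, 4698 and 5054 CPM with shRELB. In the order of group means, adherent shRELA and adherent shNeg were highest and overlapped, followed by spheroid shNeg, adherent shRELB and spheroid shRELA, each overlapping the next. Adherent shNeg lay above spheroid shNeg without overlap, adherent shRELA replicate 3 lay below the highest spheroid shNeg library, and spheroid shRELB lay below all other libraries.

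MiR-29c-3p, which shares its seed and all but 1 base with miR-29a-3p, was far less abundant. It measured 201, 379, 364 and 252 CPM in adherent shNeg, 333, 195, 156 and 518 CPM in adherent shRELA and 166, 192, 190.1 and 148 CPM in adherent shRELB. In spheroids it measured 223, 119, 97.98 and 148 CPM with shNeg, 56.7, 45.7, 41.6 and 51.3 CPM with shRELA and 76.4, 83.5, 99.97 and 72.3 CPM with shRELB. The 4 spheroid shRELA libraries were the lowest of all 24, below and apart from spheroid shRELB, the next group in the order. Adherent shRELA again had the widest range, which took in the whole range of adherent shNeg.

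MiR-29b-3p, the guide made from both clusters, had ranges that overlapped between every group and the next in the order of means. The group means were 319 ± 135 CPM in adherent shRELA, 317 ± 91.3 in adherent shNeg, 232 ± 59.7 in spheroid shNeg, 208 ± 80.2 in spheroid shRELB, 157 ± 29.8 in spheroid shRELA and 139.7 ± 19.4 in adherent shRELB (SD, n = 4). Spheroid shRELB replicate 4, at 92.6 CPM, was the lowest of all libraries, while the other 3 of its group were at 222 to 278 CPM.

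MiR-29b-1-5p, the partner strand of the chromosome 7 copy of miR-29b, was of the order of miR-29b-3p itself. It measured 256, 315, 280.4 and 239 CPM in adherent shNeg, 170.3, 220.4, 174 and 187 CPM in adherent shRELA and 160.3, 209.5, 174 and 149.6 CPM in adherent shRELB. In spheroids it measured 11.7, 80.9, 105 and 138 CPM with shNeg, 269.9, 269, 282 and 256 CPM with shRELA and 137, 115, 147 and 73.7 CPM with shRELB. The spheroid shRELA libraries were close together and lay within the range of adherent shNeg, and spheroid shNeg replicate 1, the library with few miRNAs, was by far the lowest, on 16 counts.

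MiR-29c-5p, the partner of miR-29c-3p, measured 99.1, 114, 110.5 and 94.0 CPM in adherent shNeg, 122, 94.1, 68.7 and 136 CPM in adherent shRELA and 72.9, 74.8, 63.5 and 56.0 CPM in adherent shRELB. With shNeg, shRELA and shRELB in spheroids, its means were 30.6 ± 8.49, 59.1 ± 7.59 and 43.5 ± 9.98 CPM (SD, n = 4). The spheroid shNeg libraries, at 19.9 to 37.9 CPM, lay below those of spheroid shRELA, at 51.3 to 69.3 CPM. MiR-29b-2-5p, the partner from the chromosome 1 copy of miR-29b, had the narrowest span of group means among the tested arms, from 30.0 ± 5.88 CPM in spheroid shNeg to 53.7 ± 3.96 CPM in spheroid shRELA.

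MiR-29a-5p was barely present. It had 4, 2, 8 and 6 counts in adherent shNeg, 5, 9, 0 and 4 in adherent shRELA and 5, 3, 1 and 3 in adherent shRELB. In spheroid culture 1 of 12 libraries had a count, which was 1 count in shRELA replicate 4. Fewer than 4 libraries reached the filter of 1 CPM, and the lower spheroid depth means that its level there cannot be set against adherent culture. It was not tested, so 6 of the 7 arms entered the tests, among 905 miRNAs in all.

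**Figure D1:**
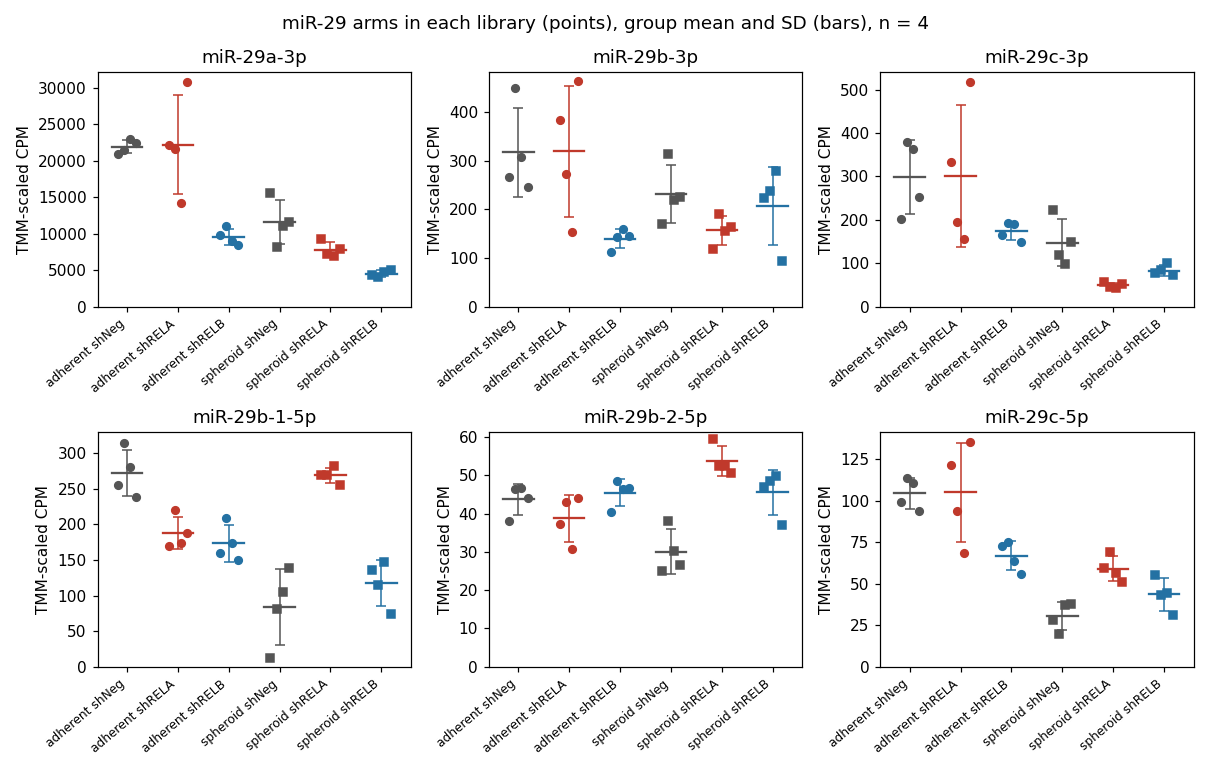
TMM-scaled CPM (y axis, linear, from 0) of the 6 tested miR-29 arms in each library of the 6 groups, with the group mean and SD over 4 libraries as bars. MiR-29a-3p is lower in adherent shRELB than in the other adherent groups, and miR-29b-1-5p in spheroid shRELA, at 256 to 282 CPM, sits above the other spheroid groups.

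The question of each knockdown comparison was whether silencing RELA or RELB altered the arms in a given culture. A miRNA was called when its false discovery rate (FDR, Benjamini-Hochberg over the 905 miRNAs) was below 0.01 and its fold change above 2 in edgeR's quasi-likelihood test. In adherent cells, RELA knockdown called 0 of the 6 arms, where 3.76% of all miRNAs tested were called. None had an unadjusted p below 0.05, and DESeq2 and limma called 0 as well. The log2 fold changes of miR-29a-3p, miR-29b-3p, miR-29c-3p and miR-29c-5p were 0.02 ± 0.18, 0.01 ± 0.28, 0.01 ± 0.27 and 0.01 ± 0.23 (SE), and these signs turned under several other settings and when single libraries were left out. MiR-29b-1-5p had a log2 fold change of -0.54 ± 0.32 (FDR = 0.401), and its 4 shRELA libraries all lay below the controls. That held for 1 of 6 arms, and 10.8% of all miRNAs tested were apart in this direction. The fibroblast and smooth muscle markers summed to 22.7 to 47.9 CPM in these libraries and 227 to 257 CPM in adherent shNeg, and the epithelial markers to 2486 to 3449 and 4853 to 5073 CPM.

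RELB knockdown in adherent cells lowered 2 guides. MiR-29a-3p fell 2.29-fold, with a log2 fold change of -1.20 ± 0.19 (SE, FDR = 1.08e-05), and miR-29b-3p fell 2.27-fold, with -1.18 ± 0.29 (FDR = 0.00331). Against these 2 of 6 arms, 3.54% of all miRNAs tested were called lower, and 3.54% were called higher. MiR-29c-3p missed the threshold at -0.78 ± 0.28 (FDR = 0.0581), as did miR-29c-5p at -0.64 ± 0.23 (FDR = 0.0617) and miR-29b-1-5p at -0.65 ± 0.32 (FDR = 0.195). For 5 of the 6 arms every shRELB library lay below every control, which was so for 15.9% of all miRNAs tested. MiR-29b-2-5p was the exception, at 0.06 ± 0.21. The median log2 fold change of the 6 arms was -0.72, beside 0.04 over all miRNAs tested. The call of miR-29a-3p held without any 1 library, whereas that of miR-29b-3p was lost without adherent shNeg replicate 2 (-0.99), or without shRELB replicate 1 (-1.10), 2 (-1.19) or 4 (-1.20), on the log2 scale, and with limma (-1.15) or library totals (-1.06). The endothelial sum moved the same way, at 2162 to 2478 CPM in adherent shRELB and 6479 to 7630 CPM in adherent shNeg. The epithelial sum moved the other way, at 7799 to 9638 and 4853 to 5073 CPM. It was led by miR-200c-3p and does not show how each epithelial marker moved. The part of these markers in the change of the guides was not tested.

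In spheroids, RELA knockdown gave changes in both directions. MiR-29c-3p fell 3.0-fold, with a log2 fold change of -1.59 ± 0.29 (SE, FDR = 8.27e-05), and miR-29b-1-5p rose 3.20-fold, with 1.68 ± 0.33 (FDR = 0.0002005). These were 2 of 6 arms, where 15.1% of all miRNAs tested were called, 7.51% higher and 7.62% lower. The abundant guide miR-29a-3p was not called, at -0.57 ± 0.19 (FDR = 0.0196), and neither was miR-29b-3p, at -0.56 ± 0.29 (FDR = 0.150). The partner strands miR-29c-5p and miR-29b-2-5p had FDRs of 0.00429 and 0.00428 but folds of 1.92 and 1.79, short of the 2-fold threshold. All libraries of the knockdown lay above the controls for the 3 tested 5p arms and below them for miR-29c-3p, and 13.4% and 9.2% of all miRNAs were apart in these directions. Without spheroid shNeg replicate 1, miR-29b-1-5p was at 1.32 and miR-29c-3p at -1.31, both still called, while miR-29a-3p was at -0.40 (FDR = 0.0828), miR-29c-5p at 0.89 and miR-29b-2-5p at 0.76. With only the groups compared, miR-29b-1-5p lost its call (1.74, FDR = 0.0188). MiR-29c-5p passed the fold threshold without spheroid shNeg replicate 3 (1.004) or 4 (1.02). The fibroblast and smooth muscle markers summed to 16.3 to 28.1 CPM in spheroid shRELA and 64.5 to 72.3 CPM in spheroid shNeg, and the endothelial markers to 1213 to 1732 and 761 to 960.02 CPM. Their part was not tested.

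RELB knockdown in spheroids lowered miR-29a-3p 2.57-fold, with a log2 fold change of -1.36 ± 0.19 (SE, FDR = 8.4e-07). This was 1 of 6 arms, with 6.08% of all miRNAs called lower and 7.29% called higher, and the call held without any 1 library, at -1.18 without spheroid shNeg replicate 1. MiR-29c-3p did not pass, at -0.82 ± 0.29 (FDR = 0.0304). It was at -0.55 (FDR = 0.114) without spheroid shNeg replicate 1 and was called without spheroid shNeg replicate 3 (-1.04). MiR-29b-3p was at -0.16 ± 0.29 (FDR = 0.715), a sign that turned without spheroid shRELB replicate 4 (0.03). The 5p arms had log2 fold changes of 0.48 ± 0.33 for miR-29b-1-5p, 0.60 ± 0.22 for miR-29b-2-5p and 0.49 ± 0.25 for miR-29c-5p, none of them called, with FDRs of 0.285, 0.0429 and 0.149. The first of these was 0.12 without spheroid shNeg replicate 1. The epithelial markers summed to 7912 to 16336 CPM in spheroid shRELB and 3238 to 4630 CPM in spheroid shNeg. Over all libraries miR-200c-3p reached 15660 CPM and miR-205-5p at most 2621 CPM. The sum therefore mostly follows miR-200c-3p and does not show how each epithelial marker moved. The part of these markers in the fall of miR-29a-3p was not tested. Both spheroid knockdowns share the spheroid shNeg libraries, and both adherent knockdowns share the adherent ones.

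**Figure D2:**
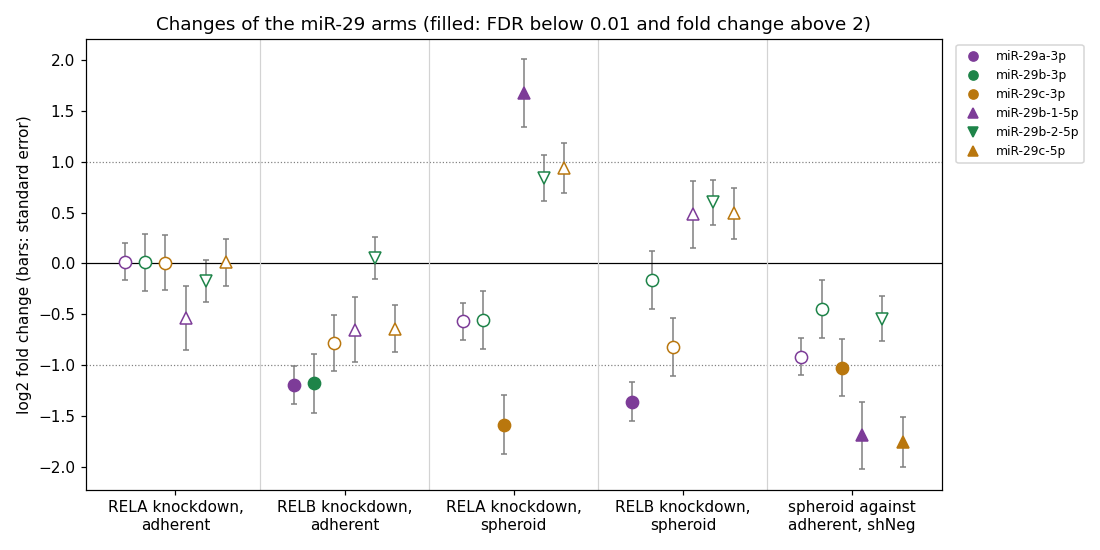
Log2 fold change (y axis, bars show the standard error) of the 6 tested miR-29 arms in the 4 knockdown comparisons and in spheroid against adherent shNeg cells, with filled symbols for arms called at FDR below 0.01 and fold change above 2 (dotted lines at 1 and -1). Circles mark the 3p arms and triangles the 5p arms, which lie apart in spheroids with RELA knockdown, where miR-29c-3p is at -1.59 and miR-29b-1-5p at 1.68.

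Whether the knockdowns acted differently in the 2 cultures was tested as a difference between the changes, spheroid minus adherent. For RELA knockdown 2 of 6 arms were called, where 7.62% of all miRNAs tested were called. The difference for miR-29b-1-5p was 2.21 ± 0.46 on the log2 scale (SE, FDR = 0.000941) and remained called without any 1 library, at 1.86 without spheroid shNeg replicate 1. The difference for miR-29c-3p was -1.59 ± 0.40 (FDR = 0.00573), and -1.32 without spheroid shNeg replicate 1, still called. It lost the call without adherent shNeg replicate 1 (-1.44) or 4 (-1.52), adherent shRELA replicate 1 (-1.35) or 4 (-1.21), or spheroid shRELA replicate 2 (-1.57), 3 (-1.42) or 4 (-1.51). MiR-29b-2-5p did not pass, at 1.013 ± 0.31 (FDR = 0.0228), and was called without spheroid shNeg replicate 2 (1.22).

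For RELB knockdown 0 of 6 arms were called in edgeR's quasi-likelihood test, where 8.51% of all miRNAs tested were called. At an unadjusted p below 0.05 there were 3 arms, and DESeq2 called 1, edgeR's likelihood ratio test 1 and limma 0. The share of all miRNAs at these other settings is not given, so these counts cannot be set against it. MiR-29a-3p, the guide that fell with RELB knockdown in either culture, had a difference of -0.16 ± 0.26 (SE, FDR = 0.711), which was 0.02 without spheroid shNeg replicate 1. MiR-29c-5p came nearest to a call, at 1.13 ± 0.34 (FDR = 0.0190), and was called without spheroid shNeg replicate 3 (1.32) or 4 (1.36), spheroid shRELA replicate 1 (1.23), 3 (1.25) or 4 (1.24), or spheroid shRELB replicate 4 (1.39). Without that last library miR-29b-3p was called as well, at 1.37 in place of 1.02 ± 0.40 (FDR = 0.0853).

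Between the shNeg cultures, 3 of 6 arms were lower in spheroids, where 20.9% of all miRNAs tested were called lower. MiR-29c-5p fell 3.38-fold (log2 fold change -1.76 ± 0.25, SE, FDR = 2.61e-07), miR-29b-1-5p fell 3.24-fold (-1.69 ± 0.33, FDR = 4.84e-05) and miR-29c-3p fell 2.04-fold (-1.03 ± 0.28, FDR = 0.00234). MiR-29a-3p had an FDR of 8.37e-05 with a fold of 1.89 (-0.92 ± 0.19), short of the threshold. The call of miR-29c-3p was lost without adherent shNeg replicate 3 (-0.92), and was also lost with DESeq2 (-0.92), a minimum mean of 10 CPM (-0.62, FDR = 0.0508) or only the groups compared (-0.78, FDR = 0.0399). Without spheroid shNeg replicate 1 it was at -1.30 and miR-29c-5p at -1.71, both called. The call of miR-29b-1-5p stood at -1.33 without spheroid shNeg replicate 1 and was lost with only the groups compared (-1.40, FDR = 0.0489). With only these groups and without that library, a setting added after the data were seen, miR-29b-1-5p was at -0.96 (FDR = 1.63e-05) and miR-29c-3p at -0.91 (FDR = 0.000197), both short of 2-fold. MiR-29a-3p was called, at -1.002 to -1.16, when adherent shNeg replicate 2, spheroid shNeg replicate 1, 3 or 4, adherent shRELA replicate 1, spheroid shRELA replicate 1, 3 or 4, or spheroid shRELB replicate 2, 3 or 4 was left out. The median log2 fold change over all miRNAs tested was -0.26 in this comparison, and it was -0.14 with median-ratio size factors and 0.17 with library totals, so the size of each culture difference moves with the scaling. With these scalings miR-29c-3p was at -0.92 and -0.62 and was not called. The knockdown results in spheroids move with the scaling too. With library totals the median over all miRNAs went from 0.09 to -0.25 for RELA and from 0.16 to -0.09 for RELB knockdown in spheroids. For the difference of the RELB changes between cultures it went from 0.15 to -0.26. The endothelial markers, at 761 to 960.02 CPM in spheroid and 6479 to 7630 CPM in adherent shNeg, and the fibroblast and smooth muscle markers, at 64.5 to 72.3 and 227 to 257 CPM, were also lower in spheroids. Their part was not tested.

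With shRELA, spheroid against adherent, 3 of 6 arms were called lower, against 15.8% of all miRNAs tested, and all were guides. MiR-29c-3p fell 6.15-fold (log2 fold change -2.62 ± 0.30, SE, FDR = 1.2e-08), miR-29a-3p fell 2.84-fold (-1.51 ± 0.19, FDR = 6.72e-08) and miR-29b-3p fell 2.03-fold (-1.02 ± 0.29, FDR = 0.00375). The last call was lost without adherent shRELA replicate 1 (-0.94) or 4 (-0.79), spheroid shRELA replicate 1 (-0.99), or spheroid shRELB replicate 1 (-0.997) or 3 (-0.98). It was also lost with a minimum mean of 10 CPM (-0.80), library totals (-0.81), limma (-0.92) or only the groups compared (-0.83). MiR-29b-1-5p and miR-29b-2-5p had values of 0.52 ± 0.32 and 0.47 ± 0.21 and were not called, though all their spheroid shRELA libraries lay above the adherent ones, as was so for 21.3% of all miRNAs tested. With shRELB, 2 of 6 arms were called lower, against 11.4% of all miRNAs tested. These were miR-29a-3p, which fell 2.12-fold (-1.08 ± 0.19, FDR = 1.92e-05), and miR-29c-3p, which fell 2.10-fold (-1.07 ± 0.28, FDR = 0.00277). Both calls were lost with a minimum mean of 10 CPM, at -0.97 and -0.96. MiR-29b-3p had a log2 fold change of 0.57 ± 0.29 (FDR = 0.106).

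Set directly against RELA knockdown in adherent cells, RELB knockdown had lower levels of 2 of 6 arms, where 4.2% of all miRNAs tested were called lower. The log2 fold changes were -1.21 ± 0.19 for miR-29a-3p (SE, FDR = 6.36e-06) and -1.19 ± 0.29 for miR-29b-3p (FDR = 0.00242). With library totals in place of TMM neither was called, at -0.95 and -0.89. The second call was lost without adherent shRELA replicate 1 (-0.96) or 4 (-0.97) or adherent shRELB replicate 1 (-1.11). MiR-29c-3p was at -0.79 ± 0.28 (FDR = 0.0339) and was called without adherent shRELA replicate 3 (-1.009). In spheroids 1 of 6 arms was called lower, where 2.76% of all miRNAs tested were. MiR-29b-1-5p was at -1.19 ± 0.32 (FDR = 0.00966), just under the threshold, and the call was lost without any 1 of most libraries, for example at -1.04 without spheroid shRELB replicate 4. MiR-29a-3p had a fold of 1.73 (-0.79 ± 0.19, FDR = 0.00253), and its spheroid shRELB libraries lay below all spheroid shRELA libraries. So did those of miR-29b-1-5p and miR-29b-2-5p, while those of miR-29c-3p lay above, and 10.1% and 10.4% of all miRNAs tested were apart in these directions.

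Ratios between arms within a library do not depend on scaling, although they move with depth where an arm is near 0 counts. The ratio of counts of miR-29c-5p to miR-29c-3p, partner to guide of 1 hairpin, averaged 36.7% ± 9.01 in adherent shNeg, 38.7% ± 9.65 in adherent shRELA and 38.5% ± 4.32 in adherent shRELB (SD, n = 4). It was 23.1% ± 11.2 in spheroid shNeg, 123% ± 24.7 in spheroid shRELA and 52.9% ± 13.6 in spheroid shRELB. In every spheroid shRELA library the partner strand was counted at least as often as the guide, and the highest ratio was 151.7%. The ratio was 5.66-fold higher in spheroids with RELA knockdown than with shNeg and 2.43-fold higher with RELB knockdown, and the groups did not overlap. Without spheroid shNeg replicate 1 its ratio there was 26.7% ± 10.6 (SD, n = 3), and the folds were 4.75 and 2.04 with groups still apart. Each comparison of all 4 libraries gave an exact permutation p of 0.0286 (2-sided, n = 4 against 4), the smallest p that this design allows, and an adjusted p of 0.122 over the 30 tests of 6 ratios in 5 comparisons. Of those 30 tests, 7 reached that smallest p and 0 had an adjusted p below 0.05. An adjusted p below 0.05 would have needed most of the 30 tests to reach the smallest p. The adjusted values therefore cannot decide whether a single ratio changed.

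Ratios between the guides were taken in the same way. The ratio of miR-29c-3p to miR-29a-3p, which differ by 1 base, was 1.26% ± 0.263 in spheroid shNeg, 0.625% ± 0.0241 in spheroid shRELA and 1.85% ± 0.318 in spheroid shRELB (SD, n = 4). It was 1.98-fold lower with RELA knockdown than with shNeg, with groups apart (exact permutation p = 0.0286, adjusted p = 0.122), and 1.89-fold lower without spheroid shNeg replicate 1. In adherent groups it ranged from 1.30% ± 0.357 to 1.83% ± 0.202. Between the 5p arms of the chromosome 1 hairpins, the ratio of miR-29b-2-5p to miR-29c-5p was 42.0% ± 3.58 in adherent shNeg, 55.3% to 83.5% in adherent shRELB and 70.4% to 192% in spheroid shNeg. It was 1.63-fold higher with RELB knockdown in adherent cells and 2.38-fold higher in spheroid than in adherent shNeg, with the same p-values. The latter was 2.46-fold without spheroid shNeg replicate 1. The remaining pair of tests with groups apart had miR-29a-5p as the denominator, which was at 0 to 1 counts in those libraries. With 0.5 counts added to so low a denominator, those ratios follow the counts of miR-29b-1-5p and, with them, the library totals.

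Ratios of the miR-29b partner strands to miR-29b-3p were added after the data were seen and were not tested. MiR-29b-1-5p stood at 88.6% ± 12.6 of miR-29b-3p in adherent shNeg and 35.5% ± 24.1 in spheroid shNeg, where the lowest value, 6.93%, was that of replicate 1, without which the mean was 45.0% ± 18.1 (SD, n = 3). It stood at 176% ± 37.4 in spheroid shRELA (SD, n = 4). MiR-29b-2-5p stood at 14.4% ± 3.12 in adherent shNeg, 32.8% ± 2.81 in adherent shRELB, 13.1% ± 1.33 in spheroid shNeg (12.6% without replicate 1) and 35.5% ± 9.95 in spheroid shRELA. For both strands all spheroid shRELA libraries were above all spheroid shNeg libraries. Across 207 hairpins with both arms tested, the median difference between the log2 fold changes of the less and the more abundant arm was 0.47 with RELA knockdown in spheroids, and it was 2.52 for MIR29C, 2.24 for MIR29B1 and 1.40 for MIR29B2. Of the 207 hairpins, 19 had a larger difference than MIR29C and 30 a larger one than MIR29B1. The values of MIR29B1 and MIR29B2 both use the same change of miR-29b-3p, whose reads cannot be assigned to either hairpin. They are therefore not separate measures of each hairpin.

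**Figure D3:**
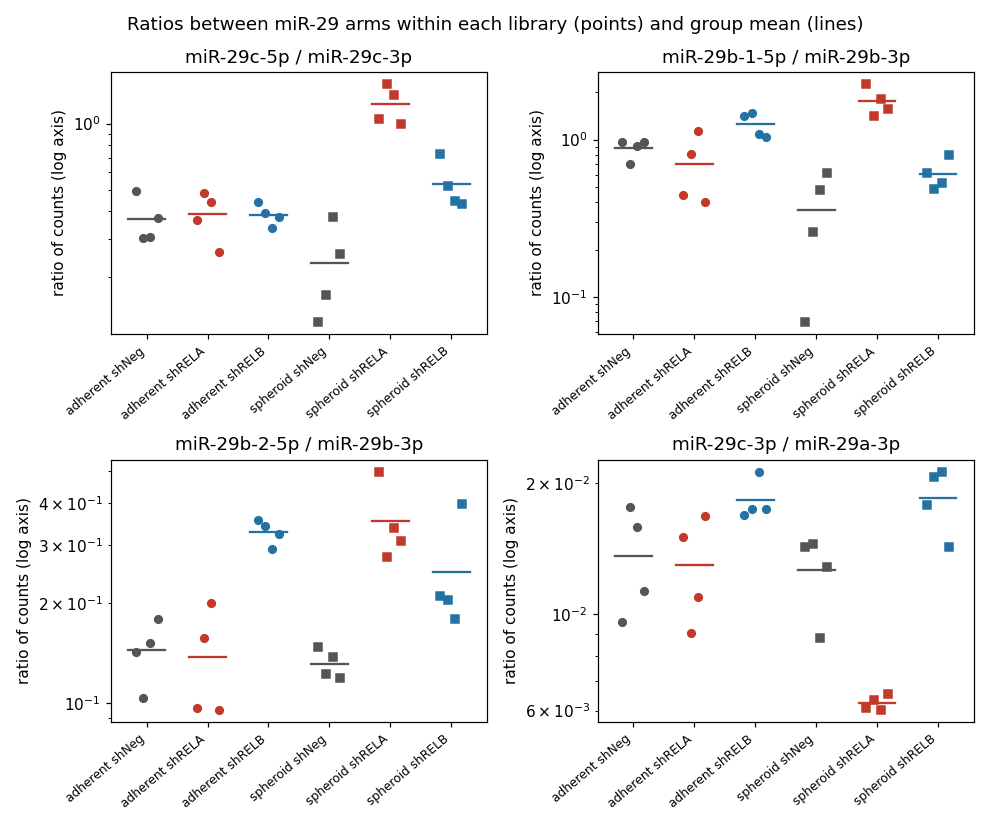
Ratio of counts between pairs of miR-29 arms (y axis, log scale) in each library of the 6 groups (points), with the mean ratio of each group as a line. The ratio of miR-29c-5p to miR-29c-3p is at or above 1 in the 4 spheroid shRELA libraries alone, and their ratio of miR-29c-3p to miR-29a-3p, at 0.00602 to 0.00654, is the lowest.

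The profiles of the guides over the 24 libraries were compared with those of 329 miRNAs whose mean level reached 10 CPM, as a description, since libraries share their groups, depth and scaling. The miRNAs most like miR-29a-3p by Spearman's rho were miR-769-5p (0.94), miR-99b-5p (0.90) and miR-551a (0.88). Those most like miR-29c-3p were miR-101-3p (0.91), miR-12135 (0.88) and miR-99b-5p (0.83). For miR-29b-3p the closest were miR-2355-3p (0.67), miR-335-5p (0.64) and miR-5100 (0.61). Among the members, rho was 0.86 between miR-29a-3p and miR-29c-3p, which come from different clusters. It was 0.45 between miR-29a-3p and miR-29b-3p and 0.64 between both arms of MIR29C. MiR-29b-2-5p had a rho of -0.47 with miR-29a-3p, -0.44 with miR-29c-3p and -0.13 with miR-29b-3p.

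Other miRNAs tied to the same regulators were counted beside the family. Of 15 miRNAs induced by NF-κB or acting on it, all tested, 1 was called higher and 2 lower with RELA knockdown in adherent cells, where 1.1% and 2.65% of all miRNAs were called in these directions. With RELB knockdown in adherent cells 2 were called higher and 4 lower, with RELA knockdown in spheroids 2 higher and 1 lower, and with RELB knockdown in spheroids 4 higher and 0 lower. Of all miRNAs tested, 3.54% were called higher and 3.54% lower, 7.51% and 7.62%, and 7.29% and 6.08% in these comparisons. DESeq2 and limma also called 0 of the 15 lower in the last of these, and 0 were lower at an unadjusted p below 0.05. MiR-155-5p, which is induced by NF-κB in immune cells, was called higher in each of these, with log2 fold changes of 2.34 ± 0.32, 3.10 ± 0.32, 3.31 ± 0.38 and 3.84 ± 0.38 (SE) in the same order. MiR-125b-5p was called lower with RELA knockdown, at -5.05 ± 0.24 in adherent cells and -3.45 ± 0.23 in spheroids. MiR-223-3p, a myeloid miRNA, was at -3.85 ± 0.87 with RELB knockdown in adherent cells. That value rests on few counts, as miR-223-3p had a median of 1.05 CPM over all libraries, a maximum of 8.07 CPM and 3 libraries at 0. MiR-146a-5p, a negative regulator of NF-κB signaling, was at 1.86 ± 0.18 with RELB knockdown in spheroids. The median log2 fold changes of the 15 were -0.48, -0.33, 0.75 and 0.65, beside 0.09, 0.04, 0.09 and 0.16 over all miRNAs tested, all with TMM scaling.

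Of 20 miRNAs other than miR-29 that MYC is reported to repress, some of them also in the list before, 0 were called with RELA knockdown in adherent cells by edgeR's quasi-likelihood test, DESeq2 or limma, with 5 higher and 4 lower at an unadjusted p below 0.05. With RELB knockdown in adherent cells 1 was called higher, miR-34a-5p at 1.49 ± 0.21 (SE), and 2 lower, among them miR-23b-3p at -1.23 ± 0.22. In spheroids 8 were called higher and 0 lower with RELA knockdown, led by let-7f-5p at 2.04 ± 0.21 and let-7d-5p at 1.59 ± 0.20, and 6 were called higher and 0 lower with RELB knockdown, led by miR-146a-5p and by miR-26b-5p at 1.82 ± 0.23. Of all miRNAs tested, 1.1% were called higher and 2.65% lower with RELA knockdown in adherent cells, and 3.54% in each direction with RELB knockdown. In spheroids 7.51% were called higher and 7.62% lower with RELA knockdown, and 7.29% and 6.08% with RELB knockdown. DESeq2 and limma likewise called 0 of the 20 lower in spheroids, and at an unadjusted p below 0.05 there were 0 lower with RELA and 1 with RELB knockdown. The medians of the 20 were 0.08, -0.38, 0.91 and 0.73 with TMM scaling, and list medians with other scalings are not given. In spheroid against adherent shNeg cells, 13 of the 15 and 17 of the 20 were called lower, with medians of -1.44 and -1.80, beside 20.9% called lower and a median of -0.26 over all miRNAs tested. DESeq2 called 10 and 15 lower, and limma 13 and 17. These falls and the rises with knockdown in spheroids share the spheroid shNeg libraries, so they are not separate results. The list counts are not given without spheroid shNeg replicate 1. MiR-26b-5p and miR-26a-5p, at -3.53 ± 0.25 and -2.65 ± 0.26, led the 20, and miR-23b-3p and miR-30b-5p, at -2.47 ± 0.23 and -2.37 ± 0.42, led the 15.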

How the data were processed

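Small RNA libraries of OV90 cells, 24 in 6 groups of 4, were analysed from 1 table. According to the methods, the authors sequenced them as single-end reads on a NextSeq from a QIAseq library kit with unique molecular indices, removed adapters (Cutadapt) and counted matches to miRBase entries on GRCh38 (miRDeep2), and whether reads sharing an index were collapsed is not given in the sources used here. The table the authors deposited is titled as CPM, but its values are estimated counts, as most are whole and library totals differ. Values that were not whole (3.04% of those above 0, on 84 miRNAs) were rounded.

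A miRNA was tested if 4 or more libraries had 1 CPM or more of it, which held for 905 of 2656 and for 99.98% or more of the counts in any library. After TMM scaling, the model held a term for the group and no other (R 4.3.3, edgeR 4.0.16), with FDRs by Benjamini-Hochberg over all 905. Calls needed an FDR below 0.01 and a fold change above 2. Standard errors were derived from the log2 fold change and the F statistic of its test. Ratios of arms, with 0.5 counts added, were tested by 2-sided exact permutation tests in Python 3.11.15 with SciPy 1.17.1. Group values are means and SDs of 4 libraries.

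The arms described were all 7 members. The other miRNAs named were the 3 with the highest Spearman's rho to each 3p arm among those whose mean reached 10 CPM, and up to 2 called members of each list with the largest change. Members, lists and tests were chosen with earlier results of these data known. Sequences were matched by name to RefSeq for 795 of the 905.

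Each result was recomputed without a filter, with a minimum mean of 10 CPM, with size factors by median ratio, with library totals, with DESeq2 1.42.0, with edgeR's likelihood ratio test, with limma 3.58.1 on log2(CPM + 1), with replicate number as a block, from only the groups compared, at an FDR below 0.05 without a fold threshold, and without each library in turn. Only the groups compared without spheroid shNeg replicate 1 was added after seeing the data. The fits were tested on simulated data. No 2 replicates agreed within sampling noise.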

Additional observations from a re-analysis of the deposited data

Results flagged for a closer look

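The change of miR-29b-1-5p with RELA knockdown differed between the cultures, by 2.21 on the log2 scale (spheroid minus adherent, edgeR's quasi-likelihood test, FDR = 0.000941). The change of miR-29c-3p differed in the other direction, by -1.59 (FDR = 0.00573). MiR-29a-5p had a single count in spheroid shRELA replicate 4, at 0.38 CPM, with the other 3 libraries of the group at 0. Its gap to the others was the only 1 past Dixon's limit at 95% among 40 sets of 4 libraries examined. With the other 3 libraries tied at 0, any count would pass that limit, so the flag cannot be set against chance. The value also lies below the limit that a count of 0 allows.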

How the results depend on the processing

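Over all alternatives, values of single arms and ratios were counted as the same 2283 times, reversed 128 times, lost a call 67 times and gained a call 30 times, and the cause was not tested. For single arms, the same meant an equal direction and call. Ratios without 1 library were counted as the same while they moved by less than the larger group SD, so some of these changed sign. The log2 difference of miR-29b-2-5p to miR-29c-5p with RELA knockdown in spheroids, at -0.13, reached 0.18. With RELA knockdown in adherent cells, the log2 fold changes near 0 turned negative for miR-29a-3p, miR-29b-3p, miR-29c-3p and miR-29c-5p, at -0.0907, -0.119, -0.129 and -0.0991 without a filter, -0.0403, -0.0628, -0.0751 and -0.0463 with a minimum mean of 10 CPM, -0.126, -0.167, -0.179 and -0.135 with library totals, -0.0351, -0.0668, -0.102 and -0.0338 with limma, and -0.0706, -0.0888, -0.104 and -0.0713 with only the groups compared. Leaving out 1 library gave -0.172 to 0.189, -0.217 to 0.246, -0.379 to 0.229 and -0.177 to 0.175.

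MiR-29b-2-5p turned with RELB knockdown in adherent cells, at -0.0318 with only the groups compared and -0.109 to 0.127 without 1 library. In spheroid against adherent shRELB cells it stood at -0.190 without a filter, -0.0116 with median-ratio size factors, -0.0153 with DESeq2, -0.0015 with the likelihood ratio test, -0.0033 with limma and -0.169 to 0.0318 without 1 library. MiR-29b-3p turned in spheroid against adherent shNeg cells with only the groups compared and without spheroid shNeg replicate 1 (0.0604), and was -0.315 to 0.0319 without 1 library with RELB knockdown in spheroids. In the difference of the RELB changes between cultures, miR-29c-3p was 0.0066 without a filter, 0.0235 with only the groups compared without spheroid shNeg replicate 1, and -0.153 to 0.235 without 1 library, and miR-29a-3p was -0.216 to 0.0176. MiR-29b-1-5p was 0.104 with library totals between the adherent knockdowns. Of the ratios, that of miR-29b-1-5p to miR-29a-5p was -0.0072 and -0.0777 on the log2 scale with 1 count added for the adherent RELA and RELB knockdowns, and 1.55 with 0.1 counts added between the shNeg cultures, where miR-29a-5p to miR-29a-3p was 0.28 with 1 count added.

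The number of arms called moved as follows. Shares of all miRNAs at these settings are not given, so the counts show only how the calls depend on the processing. For RELB knockdown in adherent cells, 1 was called with library totals, 1 with limma and 1 to 2 without 1 library. For RELA knockdown in spheroids, 1 was called with only the groups compared, as miR-29b-1-5p had an FDR of 0.0188 there, and 5 at an FDR below 0.05 without a fold threshold. For RELB knockdown in spheroids, 2 were called with a minimum mean of 10 CPM, 2 with library totals, 3 at the looser threshold and 1 to 2 without 1 library. Between the shNeg cultures, 1 was called with only the groups compared, 1 with these and without spheroid shNeg replicate 1, and 5 at the looser threshold. Between the shRELB cultures, 0 were called with a minimum mean of 10 CPM and 0 with only the groups compared. For the difference of the RELA changes, 1 was called with limma, 1 with only the groups compared and 1 to 3 without 1 library. For the difference of the RELB changes, 1 was called without a filter, 1 with DESeq2, 1 with the likelihood ratio test, 1 at the looser threshold and 0 to 2 without 1 library. Between the adherent knockdowns, 0 were called with library totals, 1 with limma, 4 at the looser threshold and 1 to 3 without 1 library. Between the spheroid knockdowns, 0 were called with median-ratio size factors, 0 with library totals, 0 with limma, 2 at the looser threshold and 0 to 1 without 1 library.

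Replicate numbers did not pair the libraries. The correlations of same-numbered libraries ran from -0.52 to 0.36 over 9 comparisons, and in 0 of them were all 4 above 0.1. With the replicate block, 1 arm was called for the difference of the RELA changes, where miR-29c-3p was at -1.53 with an FDR of 0.0142, and 0 between the spheroid knockdowns, where miR-29b-1-5p was at -1.19 with an FDR of 0.0136. The block also turned the adherent RELA values of miR-29a-3p (-0.0066) and miR-29c-3p (-0.0491), and it changed no other call.

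Depth limited miR-29a-5p, which had at most 9 counts, and the spheroid values of the 5p arms, which rested on as few as 16 counts for miR-29b-1-5p and 26 for miR-29c-5p. The number of libraries limited the ratios, whose smallest exact p was 0.0286. Spheroid shNeg replicate 1 had a count for the fewest miRNAs, and all comparisons with the spheroid controls include it unless stated.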
